A study of Homo sapiens with 20 samples.

Results

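In HCT116 cells, an established line from a human colorectal carcinoma, 542 of the 16755 regions that carried an H3K4me3 peak in both wild-type (WT) libraries had no overlap with a peak of either WT H3K27ac library. They make up 3.23% of those regions. The members were found by merging the H3K4me3 peaks of both WT lists where they shared at least 1 bp on chromosomes 1 to 22, keeping regions called in both lists, and then taking those that no WT H3K27ac peak touched. The regions were thus selected on peak calls in the WT H3K4me3 and WT H3K27ac lists, and values from those lists are given as a description only. The regions were proposed as promoters, but 94 of the 542 lay within 1 kb of a protein-coding gene start, so they are called here H3K4me3 regions without H3K27ac.

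The libraries are ChIP-seq from MLL4-knockout (KO) and WT HCT116 cells, and no treatment is named for either genotype. For each genotype there were 2 libraries of H3K4me3, of H3K27ac and of p53, 1 each of H3K4me1, MLL1 and MLL4, and 1 input. The labels give neither the allele of the knockout nor whether the KO line is 1 clone, and separate cultures are not stated for the replicates, so p-values reflect spread among libraries that may be technical replicates. Values with 1 library per genotype have no replicate check.

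H3K4me3 is the mark of nucleosomes at the starts of active and poised genes, and H3K27ac is laid down by the acetyltransferases p300 and CBP at active promoters and enhancers. The marks usually occur together at active promoters. H3K4me3 without acetylation is known from poised promoters, where Polycomb repression is present, and from weak or unused CpG-rich starts. MLL1 (KMT2A) is an H3K4 methyltransferase that binds CpG-rich promoters through a CXXC domain, while MLL4 (KMT2D) deposits mainly H3K4me1 at enhancers. Neither H3K27me3 nor RNA was among the targets measured.

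Peak numbers per list ran up to 198765, in WT replicate 2 of H3K27ac, and read depth is unknown. The MLL4 list checks the genotype labels, with 280 peaks in KO and 56801 in WT. The fold enrichment of a peak over its local background is the authors' own value per peak, called fold below, and positions are on hg38. A fold listed for a region is that of its highest overlapping peak. The 4 H3K4me3 lists differed in scale, with median folds over all peaks of 63.2 in KO replicate 1, 85.9 in KO replicate 2, 58.1 in WT replicate 1 and 80.0 in WT replicate 2. Over sets of regions a fold is therefore read against other regions of the same library. Folds at single genes and regions are printed as listed. Where KO and WT are said there to overlap, or 1 to be higher or lower, the order is of unscaled folds and may change with scaling. Of the colon epithelium markers checked, 6 of 8 had an H3K4me3 region at their start. Markers of other cell types had 1 of 4 for blood (absent at PTPRC and CD34 among others), 2 of 3 for neurons and 1 of 4 for fibroblasts.

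Base composition at the gene starts is easiest to see in the sequences themselves. RefSeq promoters (GRCh38.p14, 250 bases before to 50 after the gene start) are printed in the direction of transcription for 5 genes with a start within 1 kb of a region without H3K27ac. They are 3 with high WT fold, TNC, whose region had no H3K4me3 peak in either KO library, and MBNL2, whose region had H3K27ac peaks in both. Capitals mark each CpG, of which the windows held 36 in TMCC2, 9 in TTC5, 21 in COMMD9, 18 in TNC and 4 in MBNL2.
TMCC2 (chr1:205227696-205227995, plus strand): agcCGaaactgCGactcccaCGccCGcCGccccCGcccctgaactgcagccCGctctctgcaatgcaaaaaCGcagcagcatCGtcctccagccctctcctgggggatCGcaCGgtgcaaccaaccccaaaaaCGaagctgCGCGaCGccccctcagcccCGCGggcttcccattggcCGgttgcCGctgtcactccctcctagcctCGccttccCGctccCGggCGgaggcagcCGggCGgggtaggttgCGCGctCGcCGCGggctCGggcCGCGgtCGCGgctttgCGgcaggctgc
TTC5 (chr14:20305902-20306201, minus strand): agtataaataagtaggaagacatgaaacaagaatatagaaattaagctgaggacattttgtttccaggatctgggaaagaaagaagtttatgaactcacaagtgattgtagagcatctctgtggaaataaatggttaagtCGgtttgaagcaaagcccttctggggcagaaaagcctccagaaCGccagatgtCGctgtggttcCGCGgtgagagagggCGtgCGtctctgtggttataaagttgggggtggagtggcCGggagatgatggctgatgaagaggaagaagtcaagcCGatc
COMMD9 (chr11:36289375-36289674, minus strand): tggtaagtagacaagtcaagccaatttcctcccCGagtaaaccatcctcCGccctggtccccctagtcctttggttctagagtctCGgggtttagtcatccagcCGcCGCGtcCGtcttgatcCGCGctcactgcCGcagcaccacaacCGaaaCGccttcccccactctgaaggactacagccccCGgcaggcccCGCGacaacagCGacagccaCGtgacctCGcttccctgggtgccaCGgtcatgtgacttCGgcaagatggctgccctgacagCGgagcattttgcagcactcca
TNC (chr9:115118108-115118407, minus strand): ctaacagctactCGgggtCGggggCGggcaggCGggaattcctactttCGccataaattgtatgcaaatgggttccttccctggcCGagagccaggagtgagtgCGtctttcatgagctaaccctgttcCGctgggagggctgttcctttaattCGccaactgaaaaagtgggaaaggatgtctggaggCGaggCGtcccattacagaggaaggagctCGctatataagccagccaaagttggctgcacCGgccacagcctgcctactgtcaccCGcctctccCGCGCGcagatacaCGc
MBNL2 (chr13:97141584-97141883, plus strand): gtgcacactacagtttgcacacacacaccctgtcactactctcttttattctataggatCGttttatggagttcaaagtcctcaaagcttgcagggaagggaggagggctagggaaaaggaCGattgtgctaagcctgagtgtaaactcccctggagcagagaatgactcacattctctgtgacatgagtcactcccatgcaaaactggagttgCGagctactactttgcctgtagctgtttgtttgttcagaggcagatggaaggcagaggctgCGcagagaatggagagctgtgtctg

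The H3K4me3 regions without H3K27ac were narrow and weakly enriched. Their median width was 592.5 bp (lowest 208, highest 2749) against 2082 bp for the 16213 regions with WT H3K27ac. Over the 335 that were called in all 4 H3K4me3 libraries, the median fold was 16.1 in KO replicate 1 and 9.72 in KO replicate 2, against 9.48 in WT replicate 1 and 9.29 in WT replicate 2. The 14895 regions with WT H3K27ac that were called in all 4 had medians of 89.6 and 107.7 in KO and 96.4 and 115.7 in WT. Over all 542 regions the WT medians were 7.62 and 7.04. By the lower of the WT folds, 195 regions without H3K27ac lay below 5, 217 between 5 and 10, 102 between 10 and 20 and 28 at 20 or above, whereas 12298 of the 16213 other regions lay at 20 or above.

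**Figure D1:**
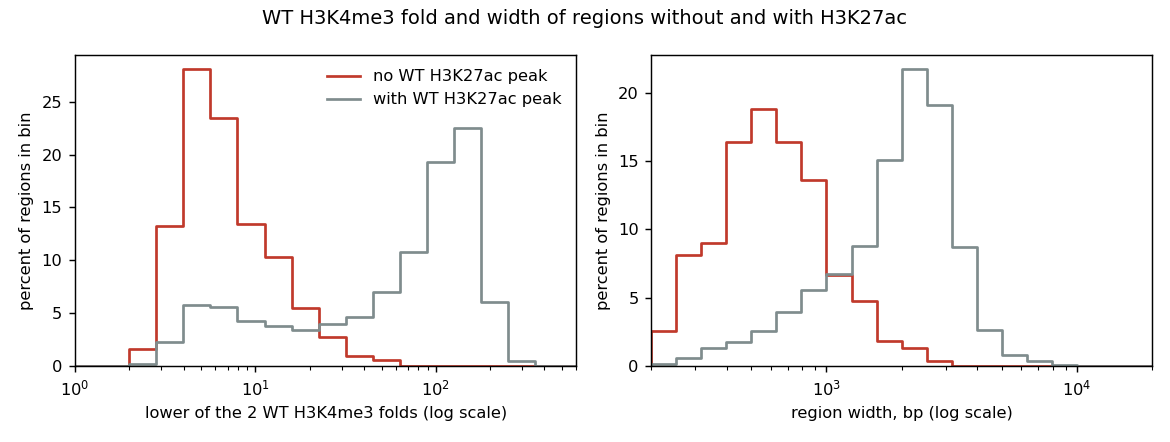
Percent of regions in each bin of the lower WT H3K4me3 fold (left, log scale) and of region width in bp (right, log scale), for the 542 regions without (red) and the 16213 with (grey) a WT H3K27ac peak. The red curves are highest near a fold of 5 and a width of 500 bp, and the grey curves are highest above a fold of 100 and a width of 2000 bp.

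Because fold and width differed this much, most shares below are set beside the share in the other regions, and those from the peak lists in the main also beside that share reweighted to the same 4 fold bands and 4 width bands, called "at equal fold and width". Intervals are 95% Wilson intervals for a share and Newcombe intervals for a difference, they cover counting error over regions only, and none was computed for the reweighted share.

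The H3K27ac cutoff that defined the set was a matter of a few bases for some regions. The distance to the nearest WT H3K27ac peak had a median of 3811 bp (lowest 1, highest 197629), with 137 regions closer than 1 kb and 179 with none within 10 kb. Just inside the rule was a region at 1 bp from an H3K27ac peak, with WT folds of 11.5 and 6.91. Its nearest protein-coding start, that of CTBP2, was 123369 bp away. Just outside the rule was a region 63325 bp from its nearest protein-coding start, that of ARID5B. An H3K27ac peak covered 0.233% of it, and its WT folds were 4.96 and 5.08. Of the other regions, 10 were covered over less than 10% of their width, and 479 had H3K27ac in 1 of the WT lists only. Lists with 1 WT library left out gave 1317 regions without WT replicate 1 and 1634 without WT replicate 2, so the number rests on both libraries.

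Most of the regions lay away from known starts. A gene can have several listed starts, and a region was assigned to the nearest. Where no start is listed for a gene, either gene end was counted, and that end may not be the start. Of the 94 regions counted next, 77 were at a listed start. Named genes without one include HBA1, PLAG1, VWA3B, KCNK9, SLC2A3, LGR5, SNAP25, BTN3A1 and IFIT2. Values given below for a gene therefore describe the start or end at that region, and the gene's other starts may differ. A protein-coding start lay within 1 kb of 94 (17.3%, 14.4 to 20.8) of the regions without H3K27ac and of 66.1% of the others, where 64.6% of all 16755 regions had one, a difference of -48.8 points (-51.8 to -45.3). At equal fold and width the other regions had 13.1%, which lies below the interval for the regions without H3K27ac. A lncRNA start alone was near 39 regions (7.20%), against 6.09% of the other regions (8.22% at equal fold and width) and 6.13% of all, which is near the background. The end of another gene alone was near 45 (8.30%, against 2.87% of the other regions and 3.04% of all), and 364 (67.2%) had none of these within 1 kb, against 24.9% of the other regions and 73.3% at equal fold and width.

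Within genes, 214 of the regions (39.5%) overlapped a protein-coding gene and 216 (39.9%) no listed gene, against 79.5% and 11.4% of the other regions. Counted over the same 542, 106 (19.6%) lay over 100 kb from any protein-coding start, against 4.07%. Pseudogenes were overlapped by 33 (6.09%, 4.37 to 8.43) of the regions without H3K27ac and 3.03% of the others, a difference of 3.05 points (1.31 to 5.41), and reads from near-identical copies cannot be placed with certainty there. By chromosome, the share of H3K4me3 regions that lacked H3K27ac was highest on chromosome 18 (6.54%, 4.12 to 10.2), 13 (6.53%) and 4 (6.44%), and lowest on chromosomes 19 (0.803%, 0.437 to 1.47) and 17 (0.819%).

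Transfer RNA genes, transcribed by RNA polymerase III, stood near 14 regions (2.58%, 1.54 to 4.29) within 1 kb, against 0.999% of the other regions and 1.05% of all, a difference of 1.58 points (0.533 to 3.30). Of the 14, 12 lay on chromosome 6, as did 50 of the 162 other regions near a tRNA gene. All 14 had an H3K4me3 peak in KO replicate 1 and 7 in KO replicate 2. Over the 542 regions without H3K27ac these shares were 91.3% and 62.9%, and over all 16755 regions 94% and 91.6%. The strongest was at TRA-CGC4-1, with folds of 35.8 and 7.72 in KO and 23.6 and 33.8 in WT, where H3K27ac peaks of 5.89 and 6.11 were called in KO. Its KO replicates lay on either side of both WT values.

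That locus held the largest of 4 runs of 3 or more regions spaced under 100 kb apart, 6 regions between positions 28648218 and 28818018. Another run of 3 lay at the alpha-globin locus on chromosome 16, positions 139436 to 176852, at HBA1 and HBA2, the adult alpha-globin genes, and at NPRL3, whose introns hold the alpha-globin enhancers. HBA1 had folds of 22.8 and 47.5 in KO and 26.4 and 19.0 in WT. At NPRL3 the KO folds of 97.8 and 106.2 stood against 8.87 and 8.19 in WT, but the summits of those KO peaks did not both lie within the 455 bp region. Most of the regions, 480, had no other such region within 100 kb.

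Of the 10392 protein-coding genes with an H3K4me3 region within 1 kb of the start, 0.905% had a region without H3K27ac. Developmental gene families that are often held poised in embryonic stem cells had none: 0 of 19 HOX genes with H3K4me3, 0 of 53 other homeobox genes, 0 of 6 SOX genes, 0 of 10 GATA and T-box genes and 0 of 11 WNT ligands. At a background of 0.905%, these counts say nothing particular about the lists. None was found either at 69 ribosomal protein genes and 27 replication-dependent histone genes. The forkhead list had 1 of 23, the ZNF genes 1 of 322, the potassium channels 2 of 28, the solute carriers 2 of 196 and the germline genes 1 of 21.

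Among the genes with the highest WT fold, PLAG1, a zinc finger transcription factor and oncogene, had H3K4me3 folds of 55.7 and 147.1 in KO and 50.9 and 59.4 in WT. KO replicate 1 lay between the WT libraries and KO replicate 2 above both. Its MLL1 peak had a fold of 66.0 in KO and 3.22 in WT, and H3K27ac was called at 5.43 in KO replicate 2 only, with the nearest WT H3K27ac peak 371 bp away. TMCC2, which encodes a coiled-coil protein of the endoplasmic reticulum membrane, had 77.1 and 94.4 in KO and 45.8 and 49.5 in WT, so both KO values lay above both WT values. TMCC2 also carried p53 peaks, at 8.89 in KO replicate 2 and at 5.98 and 11.3 in WT.

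TTC5 encodes a cofactor of p300 in the stress response. Its H3K4me3 folds were 27.5 and 16.05 in KO and 45.03 and 81.0 in WT, with no overlap and the KO values lower. VWA3B, a protein with a von Willebrand factor A domain, had 56.7 and 63.1 in KO and 47.2 and 43.5 in WT. These unscaled folds again did not overlap, with the KO values higher. COMMD9, a subunit of the Commander complex that recycles endosomal cargo, had 43.2 and 32.7 in KO and 41.0 and 63.6 in WT, which overlapped.

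GXYLT2 is a xylosyltransferase that modifies Notch receptors, and its region of 2359 bp had 18.9 and 44.3 in KO and 35.5 and 33.98 in WT. NFATC2, a calcium-regulated transcription factor of T cells, had 34.3 and 66.0 in KO and 31.5 and 50.3 in WT. GAS1, a co-receptor for hedgehog ligands, had the widest region, 2749 bp, with 20.8 and 46.3 in KO and 24.3 and 42.2 in WT. In all 3 the genotypes overlapped. MLL1 folds at these genes were 28.6, 16.2 and 11.7 in KO and 9.67, 6.45 and 4.30 in WT.

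SCP2, a peroxisomal lipid carrier and thiolase, had folds of 47.6 and 11.3 in KO and 31.9 and 52.1 in WT, and CPED1 had 21.9 and 20.1 in KO and 31.2 and 29.8 in WT. Only for CPED1 of this pair did KO and WT not overlap. FAM72D had 42.8 and 12.4 in KO and 30.2 and 55.9 in WT, and belongs to a family of near-identical copies, so its reads cannot be assigned with certainty. FOXO3B, a copy of FOXO3, carries the same limit, with 20.8 in KO replicate 1, no peak in KO replicate 2 and 10.5 and 6.36 in WT.

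**Figure D2:**
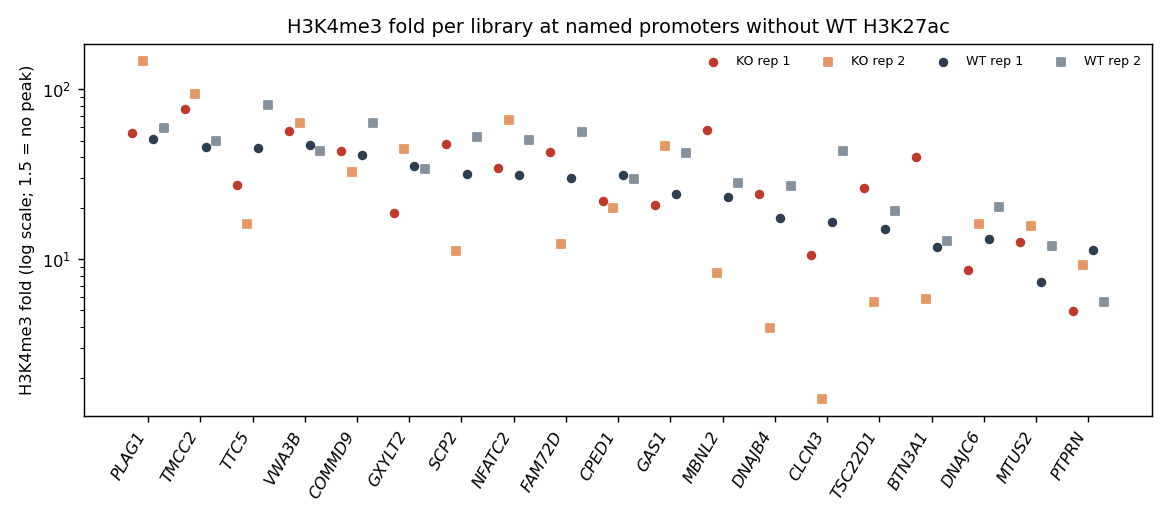
H3K4me3 fold (log scale, points drawn at 1.5 had no peak) in KO replicates 1 and 2 (red, orange) and WT replicates 1 and 2 (dark, light grey) at 19 named gene starts without WT H3K27ac. At TTC5, CPED1 and CLCN3 both KO points lie below both WT points, and at TMCC2, VWA3B and MTUS2 above. From MBNL2 to BTN3A1 KO replicate 2 is the lowest of the 4.

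The channel and carrier genes included the glutamate transporter SLC1A3, with 42.3 and 14.5 in KO and 29.4 and 12.8 in WT, and the genotypes overlapped. The glucose transporter SLC2A3 had 2.97 in KO replicate 1, no peak in KO replicate 2 and 7.81 and 7.46 in WT, and the potassium channel KCNK9 had 7.27 in KO replicate 1, none in KO replicate 2 and 12.3 and 12.03 in WT. At both, the KO values lay below the WT values. Neither gene has a listed start, and the KCNK9 region lay 838 bp from a gene end that may not be the start. ZNF585B, a KRAB zinc finger gene, had 13.4 and 5.08 in KO and 7.79 and 13.8 in WT, and SPATA13, a guanine nucleotide exchange factor that the germline list holds by its symbol, had 25.5 and 28.6 in KO and 18.9 and 15.9 in WT. The genotypes overlapped at ZNF585B, and at SPATA13 both KO values were the higher.

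Of the fixed cell type markers, 2 had their H3K4me3 in such a region. LGR5, a Wnt-responsive receptor of intestinal stem cells, had folds of 6.90 and 14.8 in KO and 14.5 and 25.6 in WT, with no H3K27ac peak in KO either and p53 peaks of 6.13 and 5.08 in KO and 10.5 and 22.5 in WT. SNAP25, a neuronal vesicle fusion protein, had 28.4 and 37.2 in KO and 24.8 and 7.65 in WT. LGR5 overlapped between the genotypes, while at SNAP25 both KO values lay above both WT values.

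Away from any gene start, the strongest region lay on chromosome 16 at 28402277 to 28403764, with folds of 74.3 and 27.04 in KO and 30.2 and 47.9 in WT. Others were on chromosome 8 at 18060275 to 18061899, with 46.9 and 7.55 in KO and 29.4 and 41.8 in WT, and on chromosome 5 at 108924439 to 108925357, with 58.1 and 7.25 in KO and 26.2 and 28.1 in WT. In each, KO replicate 1 was above both WT libraries and KO replicate 2 below both. None of the 3 had an MLL1, MLL4 or p53 peak, but each had H3K27ac in KO, at 5.16 in replicate 1 on chromosome 16, at 7.48 in replicate 2 on chromosome 8 and at 5.79 and 6.63 on chromosome 5.

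In KO cells most of the regions still carried H3K4me3, but the KO libraries differed. A peak was called in 495 (91.3%, 88.7 to 93.4) of the 542 in KO replicate 1, where 94% of all 16755 regions had one, and in 341 (62.9%, 58.8 to 66.9) in KO replicate 2, where 91.6% had one. The other regions had 94.0% and 92.5%, or 71.0% and 63.9% at equal fold and width. Among regions of lower WT fold below 5, KO replicate 1 called 81.5% (75.5 to 86.4) of those without H3K27ac and 48.0% (44.9 to 51.1) of the others, with intervals well apart. KO replicate 2 called 35.9% (29.5 to 42.8) and 38.1% (35.2 to 41.1) in that band, with overlapping intervals.

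H3K4me3 was called in neither KO list at 41 regions (7.56%, 5.62 to 10.1), against 5.32% of the others and 5.39% of all, a difference of 2.25 points (0.276 to 4.81). At equal fold and width the other regions had 26.1%. The 41 all had a lower WT fold below 10: 33 of 195 (16.9%, 12.3 to 22.8) below 5, against 47.5% (44.5 to 50.6) of other regions in that band, and 8 of 217 (3.69%, 1.88 to 7.10) between 5 and 10, against 19.3% (17.5 to 21.3). The share depends on which libraries are used. With the KO peak's summit required inside the region, 51 regions (9.41%) had none, against 5.61% of the others and 5.74% of all. The share was 37.1% on KO replicate 2 alone and 8.67% on KO replicate 1 alone, and 34.6% or 19.5% when WT replicate 1 or 2 was left out of the choice of regions.

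The gene starts within 1 kb of the 41 were those of TNC, KLF5, GSTA4, ABLIM1 and MEF2C. Their regions lay beside the start, at 30, 795, 802, 905 and 216 bp from it. The values describe those regions, and any other listed start of these genes is not covered. TNC, an extracellular matrix glycoprotein, had WT folds of 5.94 and 7.10, and its H3K4me1 fold was 3.38 in KO and 14.2 in WT. KLF5, a zinc finger factor of the intestinal epithelium, had WT folds of 4.88 and 4.72. GSTA4 (a glutathione transferase), ABLIM1 (an actin-binding LIM protein) and MEF2C (a transcription factor of muscle and neurons) had WT folds between 3.55 and 7.83. None of the 5 had an MLL1, MLL4 or p53 peak in any library, and MEF2C had H3K27ac at 4.55 in KO replicate 2.

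Relative to the other regions of the same library, the 335 regions called in all 4 libraries (61.8%, where 90.9% of all regions were) had a median log2 fold that differed by -2.48 in KO replicate 1, -3.47 in KO replicate 2, -3.35 in WT replicate 1 and -3.64 in WT replicate 2. The mean difference was -2.97 ± 0.70 in KO and -3.49 ± 0.21 in WT (SD, n = 2 each), so KO minus WT was 0.52. This is a description with no test, since the WT lists also chose the regions. Without KO replicate 1 the difference was 0.03, and without KO replicate 2 it was 1.03, so it rests on KO replicate 1. The spread between the KO libraries was larger than the difference between genotypes.

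Region by region, both KO folds exceeded both WT folds at 128 regions (23.6%, 20.2 to 27.4), against 16.4% of the others and 16.6% of all, with 27.6% at equal fold and width. Both KO values, counting no peak as lowest, were below both WT values at 82 (15.1%, 12.4 to 18.4), against 23.6% of the others, 23.3% of all and 34.8% at equal fold and width. The KO libraries compared with each other showed a median log2 ratio of replicate 1 over replicate 2 of 0.61 over the 335 regions, positive at 242, against -0.26 over the others. The same ratio of the WT libraries was 0.01 in the regions without H3K27ac and -0.17 in the others.

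**Figure D3:**
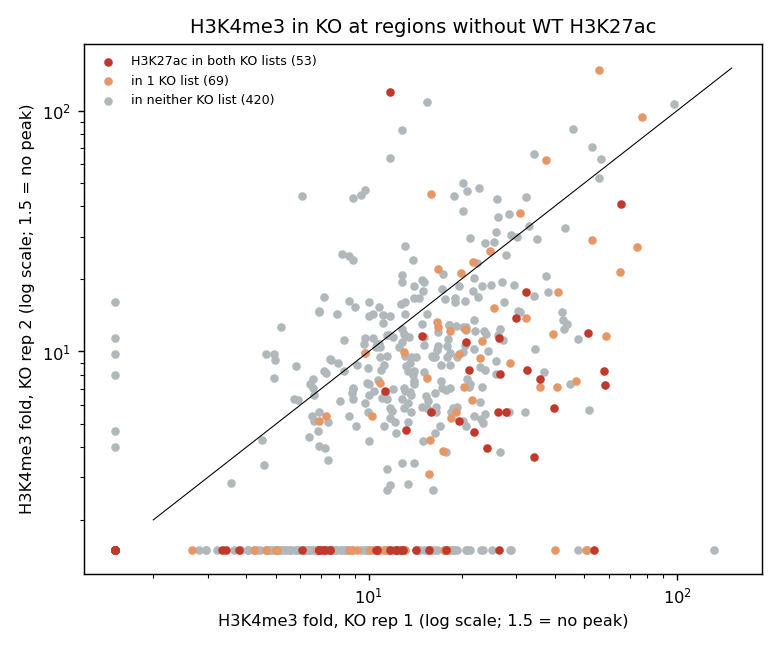
H3K4me3 fold in KO replicate 2 against KO replicate 1 (log scales, points at 1.5 had no peak) at the 542 regions, coloured by H3K27ac in KO, with the line of equality. Most regions lie below the line or on the lower edge, where 160 regions (29.5%, against 3.06% of all 16755) were called in KO replicate 1 only, and of the 24 regions with H3K27ac in both KO lists and H3K4me3 in both, 23 lie below it.

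H3K27ac, absent from these regions in WT by choice, was called in KO replicate 1 at 67 (12.4%, 9.85 to 15.4) and in KO replicate 2 at 108 (19.9%, 16.8 to 23.5), where 90.2% and 91.4% of all regions had it. It was called in both at 53 (9.78%, 7.55 to 12.6), against 91.1% of the others, 88.5% of all and 64.7% at equal fold and width, and in neither at 420 (77.5%), against 4.52% of the others (19.5% at equal fold and width) and 6.88% of all. The KO H3K27ac lists were shorter than the WT lists, at 65051 and 61960 peaks against 139108 and 198765. The median folds of the KO peaks here were 4.76 and 5.09. The share in both KO lists was 17.1% when WT replicate 1 was left out of the choice of regions, and 4.43% when at least 50% of the region had to be covered.

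The 53 regions with H3K27ac in both KO lists were compared with the remaining 489. MLL1 was called in KO at 5 (9.43%, 4.10 to 20.3) of the 53 and 26.0% (22.3 to 30.03) of the 489, and H3K4me3 in KO replicate 2 at 24 (45.3%, 32.7 to 58.5) and 64.8% (60.5 to 68.9), with intervals apart. A p53 peak in KO replicate 2 was called at 0 (upper bound 6.76%) and 11.7% (9.11 to 14.8). Intervals overlapped for H3K4me3 in KO replicate 1 (88.7% and 91.6%), for MLL1 in WT (26.4% and 24.9%) and for MLL4 in WT (0 and 5.93%). Where both KO H3K4me3 libraries had a peak, the median log2 ratio of KO replicate 1 over replicate 2 was 1.83. That ratio was 0.95 at regions with H3K27ac in 1 KO list and 0.48 at those with it in neither, so the KO H3K4me3 libraries lay furthest apart where H3K27ac was called in both KO lists.

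Of these 53, 11 were at protein-coding starts. MBNL2, a regulator of alternative splicing, had H3K27ac folds of 7.04 and 8.29 in KO and H3K4me3 folds of 57.9 and 8.31 in KO and 23.2 and 27.9 in WT. DNAJB4, a co-chaperone of heat shock proteins, had H3K27ac at 6.25 and 12.9 in KO, with H3K4me3 at 24.2 and 3.96 in KO and 17.6 and 26.9 in WT. BTN3A1, a butyrophilin that presents phosphoantigens to gamma-delta T cells, had H3K27ac at 6.04 and 3.93 in KO, with H3K4me3 at 39.7 and 5.84 in KO and 11.8 and 12.8 in WT.

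CLCN3, a chloride and proton exchanger of endosomes, had H3K27ac at 4.65 and 8.06 in KO, with H3K4me3 at 10.6 in KO replicate 1, no peak in KO replicate 2 and 16.6 and 43.5 in WT. TSC22D1, a leucine zipper protein induced by TGF-beta, had H3K27ac at 4.80 and 7.17 in KO, with H3K4me3 at 26.1 and 5.61 in KO and 15.1 and 19.2 in WT. In these 5 genes KO replicate 2 had the lowest H3K4me3 of the 4 libraries. Their regions lay between 416 bp (MBNL2) and 24110 bp (DNAJB4) from the nearest WT H3K27ac peak.

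IFIT1 and IFIT2 were picked after their values were seen and stand for no group. IFIT1, an interferon-induced protein which binds foreign RNA, had H3K4me3 at 35.8 and 7.11 in KO and 29.6 and 35.4 in WT, with H3K27ac at 3.26 in KO replicate 1 only. IFIT2, of the same family, had H3K4me3 at 19.6 and 5.13 in KO and 7.68 and 11.9 in WT, with H3K27ac at 4.76 and 4.65 in KO.

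MLL1 was called at 132 regions in KO (24.4%, 20.9 to 28.1) and at 136 in WT (25.1%, 21.6 to 28.9), against 85.4% and 84.0% of the others and 83.5% and 82.1% of all, or 40.2% and 43.5% at equal fold and width. It was called in both genotypes at 66 regions, in KO only at 66 and in WT only at 70, where 76.4%, 7.1% and 5.73% of all regions fell into these classes, with 1 library per genotype and no test. The median MLL1 fold was 6.36 in KO and 4.84 in WT, against 25.9 and 9.13 in the other regions. When at least 50% of the region had to be covered, the shares were 15.3% in KO and 9.59% in WT.

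MLL4 was called in KO at 0 regions, where 0.0358% of all had it, and in 29 WT regions (5.35%, 3.75 to 7.58), against 43.7% of the others and 42.4% of all in WT, or 14.6% at equal fold and width. The share was 8.03% when H3K27ac peaks of −log10 q below 5 no longer excluded a region, and 1.29% with at least 50% of the region covered. Of these 29, H3K4me3 was called at 25 (86.2%) in KO replicate 1 and 24 (82.8%) in KO replicate 2, against 94% and 91.6% of all regions. At 2 (6.90%) it was called in neither, against 5.39% of all. MLL1 was called at 17 of the 29 (58.6%) in KO and 18 (62.1%) in WT, against 83.5% and 82.1% of all. H3K4me1 was called at 24 (82.8%) in KO and 26 (89.7%) in WT, against 93% and 97.2% of all.

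The gene starts of highest H3K4me3 fold with MLL4 were COMMD9 and GAS1, described above, with MLL4 folds of 4.93 and 12.5 in WT, and DNAJC6, MTUS2 and PTPRN. DNAJC6, an auxilin that uncoats clathrin vesicles, had H3K4me3 at 8.60 and 16.2 in KO and 13.1 and 20.3 in WT, with MLL1 at 17.2 in KO and 6.98 in WT. MTUS2, a microtubule-associated protein, had H3K4me3 at 12.7 and 15.8 in KO and 7.37 and 12.03 in WT. PTPRN, a protein of neuroendocrine secretory granules, had H3K4me3 at 4.94 and 9.24 in KO and 11.3 and 5.63 in WT, with H3K4me1 at 5.53 in KO and 15.8 in WT. Of these 3, only at MTUS2 did both KO values lie above both WT values, and DNAJC6 and PTPRN overlapped.

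H3K4me1 was called at 358 regions in KO (66.1%, 62.0 to 69.9) and at 427 in WT (78.8%, 75.1 to 82.0), against 93.9% and 97.9% of the others and 93% and 97.2% of all. At equal fold and width the other regions had 77.6% in KO and 97.8% in WT, both above the intervals of the regions without H3K27ac. It was called in KO only at 46 and in WT only at 115, where 1.66% and 5.87% of all regions were, and 0.424% and 20.6% of the others at equal fold and width. Where both were called, the median log2 fold of KO over WT was -0.34, against -0.58 in the other regions.

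p53 was rare at these regions. It was called at 26 and 57 in KO (4.80% and 10.5%) and at 36 and 46 in WT (6.64% and 8.49%), against 67.9% and 78.3% of the other regions in KO and 55.1% and 55.3% in WT. Over all regions the lists called 65.9% and 76.1% in KO and 53.6% and 53.8% in WT. The KO minus WT difference was 0.0923 points (7.66 ± 4.04 in KO and 7.56 ± 1.30 in WT, SD, n = 2 each), with p = 1 by a two-sided exact permutation test whose smallest possible p is 0.333, and its sign turned to -2.77 without KO replicate 2. At equal fold and width the other regions had 20.9% and 32.8% in KO and 15.3% and 15.7% in WT.

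In WT, 87 regions (16.1%, 13.2 to 19.4) had H3K4me3 with none of H3K4me1, MLL1, MLL4 and p53, against 0.327% of the others, 0.836% of all and 1.31% at equal fold and width.

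**Figure D4:**
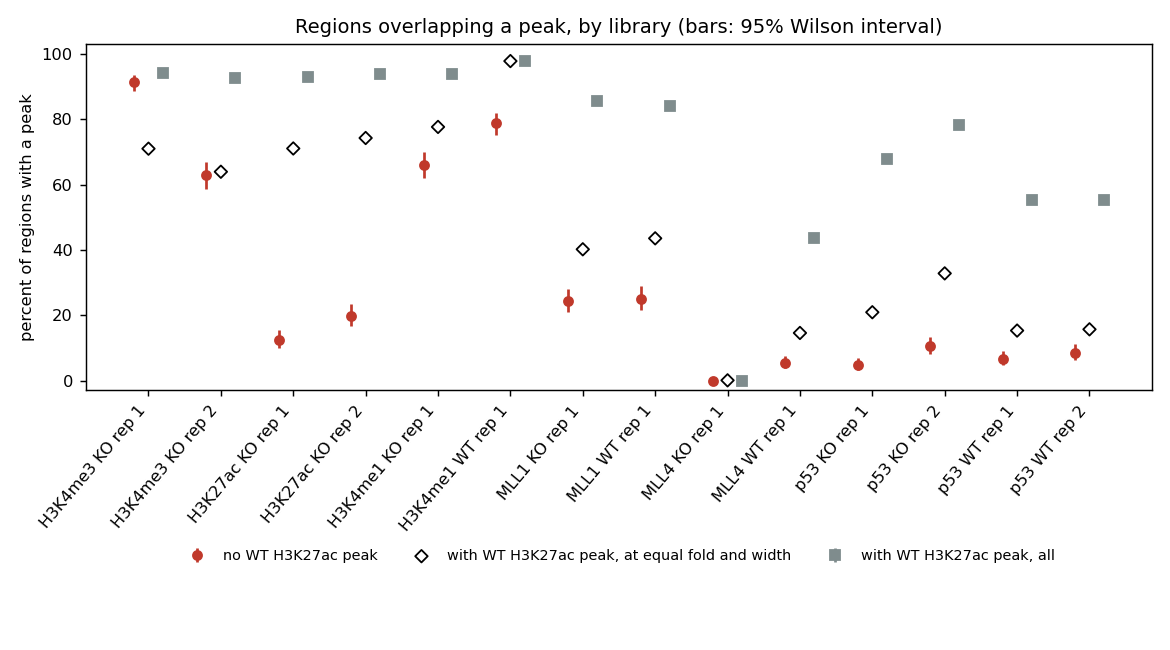
Percent of regions that overlap a peak in each library, for the 542 regions without WT H3K27ac (red, 95% Wilson bars), the other regions at equal fold and width (open diamonds) and all 16213 other regions (grey squares). The red points lie below the diamonds for H3K27ac, H3K4me1, MLL1, p53 and WT MLL4, above them for H3K4me3 in KO replicate 1 (91.3% and 71.0%) and close to them for H3K4me3 in KO replicate 2.

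The regions at protein-coding starts differed from those away from them. The 94 at starts were wider, with a median of 965 bp against 564.5 bp for the 448 away from starts, and their median lower WT fold was 10.8 against 5.69. H3K4me3 was called in KO replicate 2 at 75 (79.8%, 70.6 to 86.7) of the 94 and at 266 (59.4%, 54.8 to 63.8) of the 448, and in KO replicate 1 at 93.6% and 90.8%. MLL1 was called at 44 (46.8%, 37.0 to 56.8) and 88 (19.6%, 16.2 to 23.6) in KO, and at 30 (31.9%, 23.4 to 41.9) and 106 (23.7%, 19.96 to 27.8) in WT. H3K27ac was called in both KO lists at 11.7% (6.66 to 19.8) of those at starts and 9.38% (7.01 to 12.4) of those away from them, and these intervals overlap. Over all 16755 regions, H3K4me3 was called at 94% in KO replicate 1 and 91.6% in KO replicate 2. MLL1 was called at 83.5% of all in KO and 82.1% in WT, and H3K27ac in both KO lists at 88.5%. Among the 542 regions MLL1 in KO also rose with the lower WT fold, from 11.8% below 5 to 57.1% at 20 or above. Regions at starts and away from them were not compared at equal fold.

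CpG content was read at gene starts, where RefSeq promoters matched 77 of the 94 genes. They had a median of 12 CpG in 300 bases (lowest 0, highest 49) and 52% GC, against 29 CpG and 67.7% GC at 8883 promoters of other regions, and 21 CpG over all 21156 protein-coding promoters in the table. Fewer than 10 CpG were found in 35 (45.5%, 34.8 to 56.5) of the 77, against 4.15% (3.76 to 4.59) of the promoters of other regions and 29.9% of all. The gap to the other regions was not uniform over fold, with few promoters here per band. At a lower WT fold below 5 the share was 75% (12 of 16, 50.5 to 89.8) here and 35.2% (23.8 to 48.5) at other regions. Between 5 and 10 it was 28.6% (6 of 21) and 34.03%, and between 10 and 20 it was 44% (11 of 25) and 25.8%. In both of these bands the intervals overlapped. At 20 or above it was 40% (6 of 15, 19.8 to 64.3) and 2.95% (2.61 to 3.33). That band has no upper limit, and the highest lower WT fold was 50.9 in the regions without H3K27ac and 425.8 in the others. Between 5 and 10 the median of 18 CpG was above the 15.5 of the other regions.

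Simple motifs, searched on both strands in the same windows, were the TATA-box letters TATAAA in 9.09% of the 77, 4.33% of the promoters of other regions and 9.51% of all promoters. The letters CCAAT were in 48.1%, 34.9% and 34.4% of these sets, and GGGCGG, which contains a CpG, in 42.9%, 77.7% and 56.6%. A match describes the letters and not a binding site.

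Splitting the 77 at 10 CpG, a split chosen after the data were seen, gave 35 CpG-poor and 42 other promoters. Of the 35 CpG-poor promoters 8 (22.9%, 12.1 to 39.0) had H3K27ac in both KO lists, and of the 42 others 0 did (upper bound 8.38%). At promoters of other regions with a lower WT fold below 20 the shares were 79.7% (CpG-poor) and 59.9%. MLL1 was called at 9 (25.7%, 14.2 to 42.1) of the CpG-poor promoters in KO and 28 (66.7%, 51.6 to 79.0) of the others, and in WT at 7 and 17 (40.5%, 27.04 to 55.5). The promoters of other regions below a fold of 20 had 44.1% and 74.8% in KO and 55.9% and 50.4% in WT, so the split of MLL1 in KO by CpG was also seen there. MLL4 was called in WT at 0 of the CpG-poor promoters and 6 (14.3%) of the others. At promoters of other regions below a fold of 20 these shares were 16.9% and 32.1%. H3K4me1 was called at 29 (82.9%, 67.3 to 91.9) of the CpG-poor promoters in KO and 20 (57.1%, 40.9 to 72.0) in WT. Among the others it was called at 30 (71.4%) in KO and 35 (83.3%) in WT. Promoters of other regions below a fold of 20 had H3K4me1 at 82.2% in KO and 98.3% in WT when CpG-poor. The rest of those promoters had 85.0% and 96.0%.

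The promoters also separated the KO H3K4me3 libraries. The median log2 ratio of KO replicate 1 over replicate 2 was 1.29 at the CpG-poor promoters, positive at 21 of 23, and -0.16 at the others, positive at 16 of 37. The ratio of WT replicate 1 over replicate 2 was -0.39 and -0.34. At promoters of other regions with a lower WT fold below 20 the KO ratio was 0.18 for CpG-poor ones and -0.45 for the rest. MBNL2, CLCN3, DNAJB4 and TSC22D1, printed or described above, held 4, 5, 7 and 1 CpG. TMCC2, NFATC2, GAS1 and DNAJC6, where KO replicate 2 had the higher fold, held 36, 24, 26 and 37. Replicate 1 of KO had the higher fold at COMMD9, FAM72D, CPED1, ZNF585B and SLC1A3, among others, which held 21, 20, 20, 19 and 10.

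**Figure D5:**
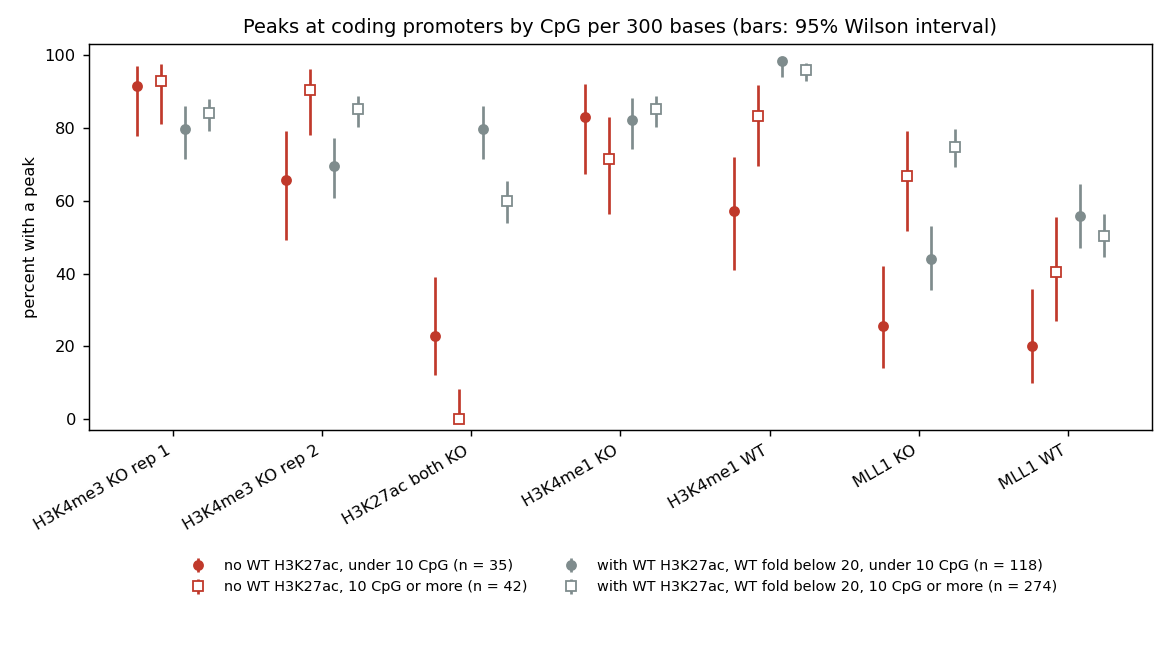
Percent of promoters with a peak (95% Wilson bars) at starts without WT H3K27ac (red) and at starts with WT H3K27ac and a lower WT fold below 20 (grey), split into fewer than 10 CpG per 300 bases (filled circles) and 10 or more (open squares). Among the red points, H3K27ac in both KO lists is at 22.9% for CpG-poor promoters and 0 for the others, and MLL1 in KO is at 25.7% and 66.7%.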

How the data were processed

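ChIP-seq of H3K4me3, H3K27ac, H3K4me1, MLL4, MLL1 and p53 in KO and WT HCT116 cells gave 18 peak lists. Peaks were called with MACS2 2.1.1 on hg38, per the submitters' processing notes, and the peak names in the deposited lists show 1 call per library with that genotype's input as control. The authors' lists give per peak a fold enrichment (a ratio over local background), the −log10 p-value, the −log10 q-value and a score. The aligner is not given in the sources used here, and depth is unknown.

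Computed here (Python 3.11.15, pandas 2.3.3, numpy 2.4.6, scipy 1.17.1): regions merged over the WT H3K4me3 lists at 1 bp on chromosomes 1 to 22, overlaps of at least 1 bp with each list, distances to RefSeq gene starts, or to either gene end where no start is listed (15101 of 19126 protein-coding genes have a listed start), and CpG per promoter. Shares carry 95% Wilson intervals, differences Newcombe intervals, and the p53 comparison over 4 libraries a two-sided exact permutation test. The relative H3K4me3 fold, for which the design named the same test, is given without it because the WT lists chose the regions. Scripts were tested on simulated data.

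Genes were named by a rule: those at a protein-coding start ranked by the lower WT fold, taking the 10 highest, the 5 widest, up to 3 per gene list, and the 5 highest without KO H3K4me3, with H3K27ac in both KO lists and with WT MLL4, plus 3 regions far from starts. A few genes covered by this rule are left out of the text. The regions and lists were chosen with earlier results of these data known. Alternatives were other q-value limits, a 1 kb gap to H3K27ac, 50% coverage, and leaving out each replicate.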

Additional observations from a re-analysis of the deposited data

How the results depend on the processing

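Across 72 alternatives, 40 values stayed within their interval or side, 29 moved beyond it and 3 changed sign. With only H3K27ac peaks of −log10 q 5 and over excluding a region (760 regions), H3K27ac in both KO lists was 13.03%, MLL1 30.3% in KO and 30% in WT, MLL4 8.03% and WT H3K4me1 83.4%. With H3K4me3 peaks of −log10 q 5 and over (406 regions), H3K4me3 was in neither KO list at 5.42%, MLL1 in KO was 29.3% and the p53 difference, KO minus WT, was -0.246 points. With no H3K27ac peak within 1 kb (405 regions) the p53 difference was -0.123. With at least 50% of a region covered, H3K4me3 was in neither KO list at 10.1%, H3K27ac in both at 4.43%, MLL1 at 15.3% in KO and 9.59% in WT, MLL4 at 1.29% and WT H3K4me1 at 69.0%. At coding starts, H3K4me3 was in neither KO list at 5.32% and WT MLL1 at 31.9%, and with listed starts only 14.2% were at a start. The last 3, and the count of KO summits within the region (9.41% with none), were chosen after seeing the data. The cause of these shifts was not tested.

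Leaving out each replicate in turn gave 1317 to 1634 regions where a WT replicate was left out. Without a KO replicate, the shares named below for neither KO H3K4me3 list and both KO H3K27ac lists use the remaining list alone. The share in neither KO H3K4me3 list ranged between 8.67% and 37.1%, H3K27ac in both KO lists between 8.14% and 19.9%, MLL1 in KO between 17.8% and 19.6%, MLL1 in WT between 20.4% and 21.6%, MLL4 between 4.83% and 5.47%, WT H3K4me1 between 78.6% and 84.3%, starts between 12.2% and 15.7%, the relative fold difference between 0.03 and 1.03, and the p53 difference between -2.77 (without KO replicate 2) and 2.95.

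Replicate numbers did not pair the libraries (correlation of deviations -0.06 over 15230 regions). With the replicate block the relative fold difference was 0.52 and the p53 difference 0.0923 (exact sign permutation p = 1). The block leaves these mean differences the same, and with 2 pairs the smallest possible p of that test is 0.5. No call could therefore have changed. Read depth is unknown, and a region without a peak may lie just under the calling limit.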

Other observations

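The regions whose KO peaks had summits inside them and exceeded both WT libraries most were chosen after seeing their values. They were led by a region at the pseudogene SDCBPP2, with H3K4me3 folds of 23.9 and 28.2 in KO and 3.64 and 3.92 in WT, and MLL1 at 6.48 in KO and no peak in WT. A region at COX20P2 had 28.8 and 30.6 in KO and 12.98 and 12.7 in WT, with MLL1 at 19.4 in KO and 3.53 in WT. A region 14507 bp from the nearest start, that of SCML4, had H3K4me3 at 65.8 and 41.0 in KO and 20.8 and 15.4 in WT, with H3K27ac at 12.7 and 9.94 in KO. Both KO values lay above both WT values in each, reads at pseudogenes and their parent genes cannot be told apart with certainty, and no test was made.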
